A study of Homo sapiens with 6 samples.

Results

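The genes described here encode the SR proteins and the hnRNPs, the best known families of regulators of pre-mRNA splicing. They were all rows of the table of counts that were typed protein-coding and carried a symbol of the form SRSF with a number or HNRNP with letters and numbers. The rule found 35 of 28317 rows, 12 SR protein genes and 23 hnRNP genes. The rule reads names and no measured value.

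The samples were cultures of A549, a long-established line of human lung adenocarcinoma cells. The cells with the UXS1 guide (UXS1 KO below) were transduced with lentiCRISPR v2, a lentivirus that carries Cas9 and 1 guide, here a guide against UXS1. The control cells (CTRL) received the same vector with a non-targeting guide, so both groups carried Cas9, underwent 5 days of puromycin selection and were collected on day 7 after infection. Each group held 3 libraries, described as biological triplicates, and RNA was measured by sequencing. UXS1 converts UDP-glucuronic acid into UDP-xylose, the sugar donor that starts glycosaminoglycan chains. No label says that a clone was isolated or that each replicate had its own infection, and the p-values rest on the spread between these 6 libraries, which may be technical.

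Total counts ran from 21121489 to 22160405 per library. UXS1 transcript, the check of the labels, stood at 17.3, 16.9 and 17.2 TPM (the authors' level, scaled by gene length and library total) in UXS1 KO libraries and at 31.0, 31.7 and 32.5 TPM in CTRL libraries, so the groups did not overlap. A transcript level does not measure how many alleles were cut. The summed level of 8 epithelial and A549 markers ran from 30734 to 31481 TPM in UXS1 KO and from 29447 to 30913 TPM in CTRL, sums that overlapped. Of these 8 genes 5 were higher and 0 lower, with a median of 0.30 on the log2 scale, among them the adhesion protein CDH1 at 0.86, the keratin KRT19 at 0.55 and the reductase AKR1C1 at 0.47. The 3 leukocyte markers found in the table summed to 1.41 to 2.16 TPM in UXS1 KO and 0.0965 to 0.337 TPM in CTRL, with CD3E, a T cell receptor subunit, at 0 counts in all 6 libraries. LYZ, which encodes lysozyme, was the 1 tested gene among them and was higher, at 1.33 to 2.02 TPM in UXS1 KO and 0.0965 to 0.274 TPM in CTRL (log2 fold change 3.04). The 5 fibroblast markers summed to 11.1 to 12.6 TPM in UXS1 KO and 9.04 to 10.6 TPM in CTRL, which did not overlap. THY1, a surface glycoprotein, was higher, with a log2 fold change of 0.53, and COL1A2 was at 0 counts in all 6 libraries. The 4 endothelial markers summed to 0.530 to 0.765 TPM in UXS1 KO and 0.451 to 0.927 TPM in CTRL, and none was called. The part of these markers in the results below was not tested.

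SR proteins bind exonic enhancer sequences through RNA recognition motifs and recruit the spliceosome through a tail rich in arginine and serine that kinases phosphorylate. The hnRNPs coat nascent transcripts, often act against SR proteins at the same exons, and also serve in export, stability and translation of mRNA. Many genes of both families control their own level through alternative exons that carry premature stop codons and send the transcript to nonsense-mediated decay. Counts per gene do not separate such isoforms, so the values below are sums over all isoforms of a gene.

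In UXS1 KO cells most of both families fell by a small amount and none rose. Of 12 SR protein genes, all of them tested, 7 were lower, 0 were higher and 5 were not called. Of 22 tested hnRNP genes, 18 were lower, 0 were higher and 4 were not called. HNRNPCL1, a retrogene copy of HNRNPC, was the only one of the 35 that did not pass the filter on low counts, with 2, 1 and 0 counts in UXS1 KO and 0 in each CTRL library. Over all 15757 tested genes 23.7% were lower and 24.5% were higher (48.2% called either way), so the 58.3% and 81.8% of the families that fell lay above that background. Calls are at an adjusted p under 0.05 in edgeR's quasi-likelihood test.

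Both families are abundant, and abundant genes fell more often: of 4438 genes that averaged 50 CPM or more (counts scaled to the library total), 37.8% were lower and 27.6% higher. In that range lay 30 of the tested members, of which 25 were lower. The median log2 fold change was -0.28 for the SR protein genes and -0.22 for the hnRNP genes, against -0.0030 for all tested genes and -0.0345 for those at 50 CPM or more. No member changed by 1.5-fold. In 26 of the 34 tested members every UXS1 KO library lay under every CTRL library in TPM, against 26.4% of all tested genes.

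**Figure D1:**
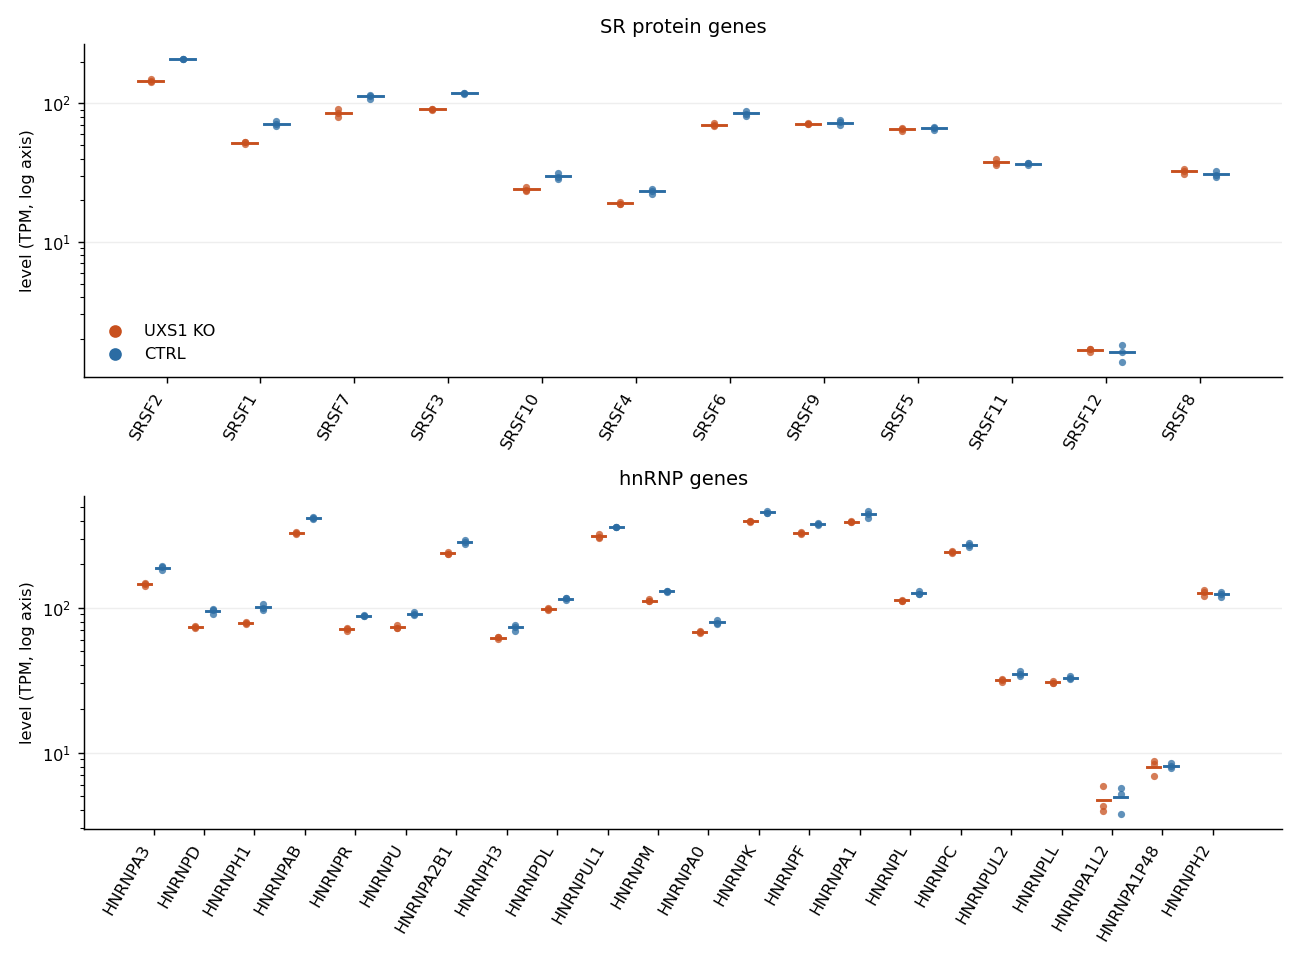
Level of each tested SR protein gene (upper panel) and hnRNP gene (lower panel) in TPM on a log axis, with 1 point per library, UXS1 KO in orange to the left of CTRL in blue, and a line at each mean. The 7 SR protein genes and 18 hnRNP genes that were called lower show orange points under all blue points, while SRSF9, SRSF5 and HNRNPH2 show overlapping points.

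The summed level of the 12 SR protein genes was 693, 688 and 706 TPM in UXS1 KO libraries and 865, 855 and 848 TPM in CTRL libraries. This sum was 18.7% lower in UXS1 KO, and its groups did not overlap. The 23 hnRNP genes summed to 3374, 3333 and 3309 TPM in UXS1 KO and to 3960, 3925 and 3821 TPM in CTRL, which is 14.4% lower, again with no overlap. In these bulk samples a lower transcript level in every cell and a smaller share of cells with a high level cannot be told apart.

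Proliferation markers moved in the same direction. All 16 of that list were lower: their median change on the log2 scale was -0.71, and their summed level ran from 1913 to 1970 TPM in UXS1 KO and from 2689 to 2774 TPM in CTRL. Among them RRM2, a ribonucleotide reductase subunit, had a log2 fold change of -0.93 and the replicative helicase subunit MCM5 one of -0.90, and the mitotic kinase PLK1 had one of -0.75. The part of this difference in the fall of the splicing genes was not tested.

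Promoters of genes that fell and of genes that did not are shown here because the families split at the level of single genes. SRSF1 with SRSF9 and HNRNPH1 with HNRNPH2 are the pairs of close relatives among them, and the others are shown without their relative. Each sequence is the RefSeq window on GRCh38.p14 from 250 bases before to 50 bases after the annotated start, 300 bases in all, printed 5′ to 3′ on the strand of the gene. Capitals mark matches on either strand to 9 motifs, which may overlap. The E-box was searched as CACGTG and the box of the trimeric factor NF-Y as CCAAT. The GC box was searched as GGGCGG, the ETS motif as CCGGAAGT and the cyclic AMP response element (CRE) as TGACGTCA. The NRF1-type motif was a pair of GCGC blocks with any 2 bases between them. The YY1-type motif was AAGATGG, the E2F-type motif TTTGGCGC or its variant TTTCCCGC, and the TATA box TATAAA. Of the 35 members 32 had a window in that table, and SRSF2, HNRNPA1 and HNRNPA1P48 had none.
SRSF1, chr17:58007197-58007496, minus strand: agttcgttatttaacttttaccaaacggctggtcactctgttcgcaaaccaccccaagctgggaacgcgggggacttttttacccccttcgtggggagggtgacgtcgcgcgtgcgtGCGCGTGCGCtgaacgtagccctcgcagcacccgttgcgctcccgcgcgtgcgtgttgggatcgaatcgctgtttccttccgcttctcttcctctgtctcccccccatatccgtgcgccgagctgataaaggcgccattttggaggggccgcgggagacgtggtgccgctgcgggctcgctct
SRSF3, chr6:36594112-36594411, plus strand: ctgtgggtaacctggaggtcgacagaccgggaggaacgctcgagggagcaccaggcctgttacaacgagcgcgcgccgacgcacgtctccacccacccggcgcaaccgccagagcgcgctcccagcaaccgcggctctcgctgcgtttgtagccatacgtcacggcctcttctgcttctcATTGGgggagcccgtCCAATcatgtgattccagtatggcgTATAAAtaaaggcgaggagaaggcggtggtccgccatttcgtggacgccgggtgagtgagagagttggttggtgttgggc
HNRNPA3, chr2:177212544-177212843, plus strand: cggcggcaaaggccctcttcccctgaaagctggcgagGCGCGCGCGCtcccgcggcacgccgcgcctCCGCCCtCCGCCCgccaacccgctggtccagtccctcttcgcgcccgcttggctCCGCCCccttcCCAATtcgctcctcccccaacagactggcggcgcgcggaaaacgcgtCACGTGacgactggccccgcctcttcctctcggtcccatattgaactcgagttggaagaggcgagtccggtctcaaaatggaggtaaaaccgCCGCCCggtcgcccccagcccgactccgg
HNRNPH1, chr5:179634735-179635034, minus strand: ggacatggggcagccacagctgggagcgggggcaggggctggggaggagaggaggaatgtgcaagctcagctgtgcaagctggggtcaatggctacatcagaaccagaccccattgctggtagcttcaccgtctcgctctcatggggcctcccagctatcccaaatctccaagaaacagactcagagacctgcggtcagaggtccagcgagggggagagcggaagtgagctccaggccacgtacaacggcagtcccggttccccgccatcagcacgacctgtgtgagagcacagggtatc
SRSF9, chr12:120469699-120469998, minus strand: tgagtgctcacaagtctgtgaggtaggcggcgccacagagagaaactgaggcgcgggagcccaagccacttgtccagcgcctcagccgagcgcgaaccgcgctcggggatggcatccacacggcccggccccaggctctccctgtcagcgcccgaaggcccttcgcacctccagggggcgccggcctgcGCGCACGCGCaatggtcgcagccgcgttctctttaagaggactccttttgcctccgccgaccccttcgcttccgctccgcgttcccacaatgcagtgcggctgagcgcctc
SRSF8, chr11:95066627-95066926, plus strand: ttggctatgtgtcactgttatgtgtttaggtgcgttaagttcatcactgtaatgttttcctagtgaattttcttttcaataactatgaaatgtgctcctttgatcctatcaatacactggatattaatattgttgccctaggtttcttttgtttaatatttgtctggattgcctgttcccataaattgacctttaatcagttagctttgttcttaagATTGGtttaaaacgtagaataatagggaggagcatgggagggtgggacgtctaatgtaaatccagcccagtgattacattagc
HNRNPH2, chrX:101407972-101408271, plus strand: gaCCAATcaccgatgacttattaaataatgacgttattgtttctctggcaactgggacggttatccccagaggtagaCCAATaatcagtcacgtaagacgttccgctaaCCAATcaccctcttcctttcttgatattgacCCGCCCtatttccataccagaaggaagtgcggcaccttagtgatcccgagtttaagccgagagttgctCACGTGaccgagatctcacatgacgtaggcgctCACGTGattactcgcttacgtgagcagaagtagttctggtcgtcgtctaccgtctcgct
The first 4 genes fell in UXS1 KO and the last 3 were not called. SRSF8, a retrogene derived from SRSF2, has a window of 36.0% GC with 3 CpG dinucleotides, while the other 6 windows shown hold 11 to 40. By GENCODE positions SRSF8 starts at 95067197 and HNRNPH2 at 101408295, both after the end of the RefSeq window shown. The windows of SRSF8 and HNRNPH2 may therefore not hold the start in use. HNRNPH2 has 48.7% GC and matches to the E-box, CCAAT and GC box letters, and the HNRNPH1 window has 61.7% GC and no match to any of the motifs. The HNRNPH1 window lies at the outermost GENCODE start of a gene with 50 annotated transcripts. It holds 11 CpG dinucleotides, the fewest among members that fell, and it too may not hold the start in use. SRSF1 and SRSF9 each hold 1 NRF1-type match, so this pair looks alike in these letters although SRSF1 fell and SRSF9 was not called. A match is a description of letters and does not show binding.

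Over the 32 windows (23 of members that fell, 8 of members not called and that of HNRNPCL1) the median number of CpG dinucleotides was 30, against 26 over the windows of 11148 tested genes, and it was 31 in those that fell and 23 in those not called. Among the 8 not called, the windows of SRSF8, HNRNPH2 and HNRNPA1L2 end before the GENCODE start of the gene. Those of SRSF5, SRSF11 and HNRNPLL lie wholly after the outermost GENCODE start. The same holds for SRSF10, HNRNPA2B1, HNRNPD, HNRNPF and HNRNPH3 among the members that fell. The CpG and motif values of both groups carry these limits, and the difference between 31 and 23 was not tested. The NRF1-type letters stood in 9 of the 23 windows of members that fell and in 2 of the 8 that were not called, against 15.3% of the windows of tested genes and 8.32% of all 35116 windows. E-box letters stood in 6 of the 23 and 1 of the 8, against 10.0% of tested genes and 7.26% of all windows. The CCAAT letters stood in 12 of the 23 and 3 of the 8 (36.3% of tested genes, 34.6% of all windows), and the GC box letters in 16 and 5 (69.3% and 45.0%). No member window held the CRE or YY1-type letters, which 3.21% and 7.27% of the windows of tested genes hold. ETS letters stood in 2 and 1 windows (8.39% of tested genes, 4.14% of all windows), E2F-type letters in 1 and 1 (3.65% and 2.27%) and TATAAA in 4 and 1 (5.75% and 11.5%).

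**Figure D2:**
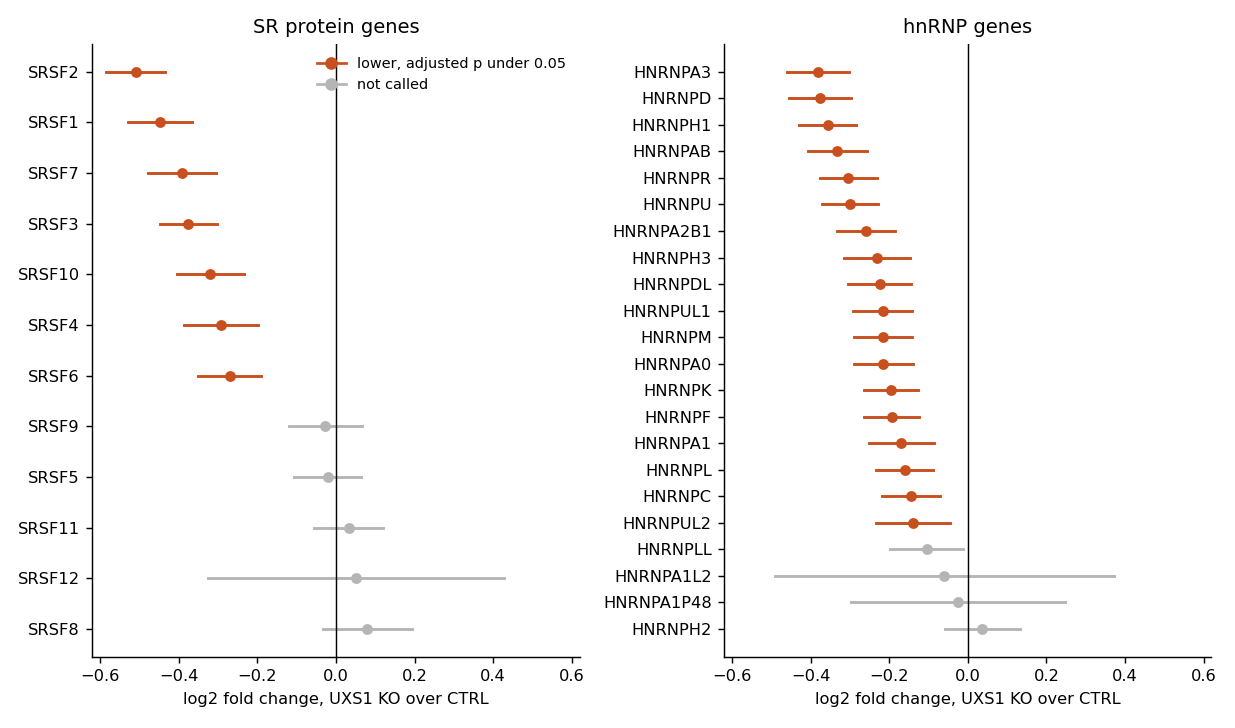
Log2 fold change, UXS1 KO over CTRL, of the 12 SR protein genes (left) and the 22 tested hnRNP genes (right), each with its 95% confidence interval from edgeR's quasi-likelihood fit, orange where called lower and grey where not called. The SR protein genes run from -0.51 for SRSF2 to 0.08 for SRSF8 with a gap between SRSF6 at -0.27 and SRSF9 at -0.03, while the hnRNP genes form a continuous order from -0.38 to 0.04.

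Among the SR protein genes the fall was deepest for SRSF2, the nuclear speckle protein also known as SC35. SRSF2 (ENSG00000161547.17, GRCh38 chromosome 17, positions 76734115 to 76737374, minus strand) stood at 143, 146 and 150 TPM in UXS1 KO libraries and at 209, 208 and 208 TPM in CTRL libraries. Its log2 fold change was -0.51 with a standard error of 0.0365 (edgeR adjusted p = 7.55e-12), which is 29.8% lower, and the groups lay far apart beside their spread. SRSF2 was the most abundant SR protein transcript in both groups. MFSD11 lies on the opposite strand and overlaps 36.7% of its exonic length, and no source says whether strand entered the counting; MFSD11 itself stood at a mean of 13.2 TPM with a log2 fold change of -0.0082.

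SRSF1, the founding SR protein once called ASF or SF2, had the next deepest fall. SRSF1 (ENSG00000136450.13, chromosome 17, positions 58003360 to 58007346, minus strand) stood at 52.7, 51.1 and 52.7 TPM in UXS1 KO and at 74.6, 70.4 and 68.7 TPM in CTRL, a log2 fold change of -0.45 with a standard error of 0.0393 (edgeR adjusted p = 3.81e-10). All 3 UXS1 KO libraries were below the lowest CTRL library. Another annotated gene on the same strand, AC015813.2, covers 56.6% of its exonic length, and AC015813.5 on the opposite strand, at a mean of 1.58 TPM, covers 13.2%, so the value of SRSF1 is uncertain to the extent that the authors' counting split those reads.

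SRSF3 and SRSF7, which are also adaptors for mRNA export, fell by like amounts. SRSF3 (chromosome 6, positions 36594353 to 36605600, plus strand) had 91.7, 90.2 and 90.8 TPM in UXS1 KO and 119, 119 and 117 TPM in CTRL, a log2 fold change of -0.38 with a standard error of 0.0355 (edgeR adjusted p = 1.55e-09). SRSF7 (chromosome 2, positions 38743599 to 38751494, minus strand), which carries a zinc knuckle, had 85.9, 80.2 and 90.5 TPM in UXS1 KO and 116, 114 and 107 TPM in CTRL, a log2 fold change of -0.39 with a standard error of 0.0421. In both genes the groups did not overlap, and the UXS1 KO libraries of SRSF7 were spread more widely than those of SRSF3.

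The larger SR proteins with 2 RNA recognition motifs split. SRSF4 averaged 19.0 ± 0.515 TPM in UXS1 KO and 23.3 ± 0.952 TPM in CTRL (SD, n = 3 each), and its log2 fold change was -0.29, and SRSF6 averaged 70.1 ± 1.81 and 84.8 ± 3.83 TPM, a log2 fold change of -0.27. SRSF5, which like them has 2 such motifs, had 63.1, 66.4 and 65.3 TPM in UXS1 KO and 64.0, 66.8 and 67.0 TPM in CTRL. Its groups overlapped, and its log2 fold change was -0.02 with a 95% interval from -0.11 to 0.06 (edgeR adjusted p = 0.707). SRSF10, which represses splicing when it loses its phosphates, was lower, with 23.9 ± 0.728 TPM in UXS1 KO and 29.9 ± 1.61 TPM in CTRL (SD, n = 3 each) and a log2 fold change of -0.32.

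The other SR protein genes did not pass the test. SRSF9, the closest relative of SRSF1, had 72.4, 71.0 and 70.5 TPM in UXS1 KO and 69.4, 75.6 and 73.1 TPM in CTRL, a log2 fold change of -0.03 with a 95% interval from -0.12 to 0.07. GATC, on the opposite strand, overlaps 46.2% of its exonic length and had a log2 fold change of -0.02. SRSF8 had 31.1, 32.6 and 33.5 TPM in UXS1 KO and 29.3, 30.5 and 32.4 TPM in CTRL, a log2 fold change of 0.08 with an interval from -0.03 to 0.19. The intervals of SRSF5, SRSF8, SRSF9 and SRSF11 (37.5 ± 1.86 TPM in UXS1 KO and 36.8 ± 0.757 TPM in CTRL, log2 fold change 0.03, interval from -0.05 to 0.12) all lay above the values of the 7 genes that fell. For SRSF12, at 1.65 ± 0.0468 TPM in UXS1 KO and 1.59 ± 0.224 TPM in CTRL (SD, n = 3 each), the interval ran from -0.33 to 0.43, so a fall of the size seen in SRSF6 was not detectable at this depth.

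**Figure D3:**
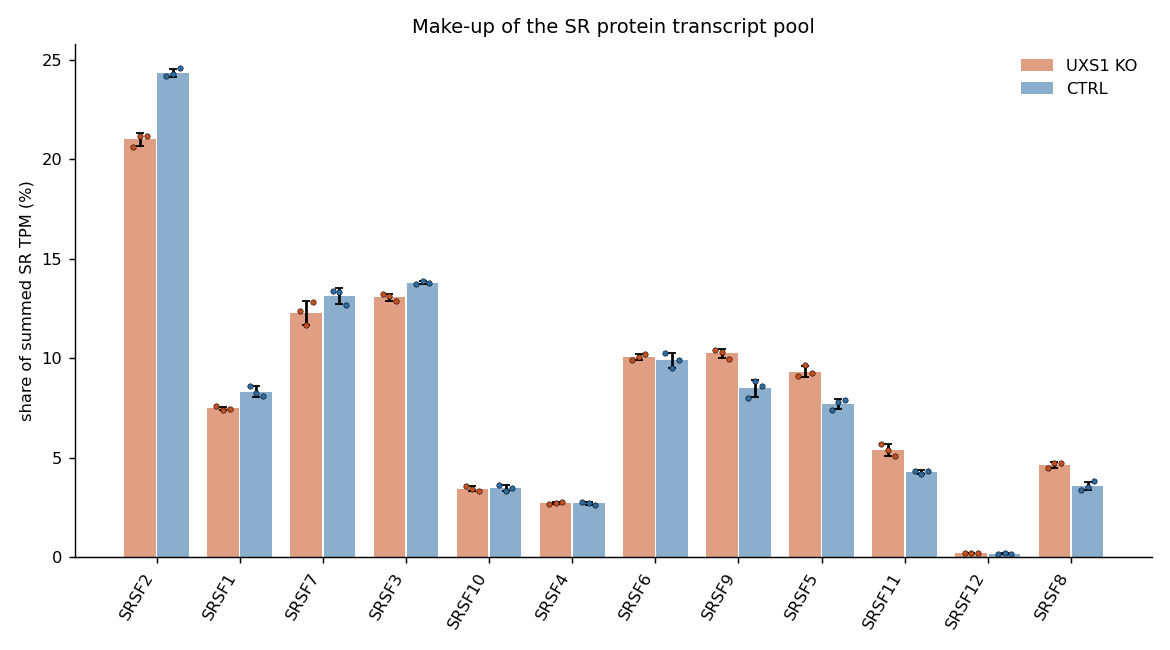
Share of each SR protein gene in the summed TPM of the 12 SR protein genes, in percent, with UXS1 KO bars in orange to the left of CTRL bars in blue, error bars giving the SD over 3 libraries and points the single libraries. SRSF2 has the largest share and takes 20.6% to 21.2% in UXS1 KO and 24.2% to 24.6% in CTRL, while the bars of SRSF9, SRSF5, SRSF11 and SRSF8 are higher in UXS1 KO.

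Because some genes fell and others did not, the make-up of the SR transcript pool shifted. SRSF2 made up 20.6%, 21.2% and 21.2% of the summed SR TPM in UXS1 KO libraries and 24.2%, 24.3% and 24.6% in CTRL libraries, a difference of -3.34 percentage points. SRSF9 made up 10.3% ± 0.238 in UXS1 KO and 8.50% ± 0.423 in CTRL, and SRSF5 9.33% ± 0.288 and 7.71% ± 0.265 (SD, n = 3 each). Shares within a sum are bound together, so a share that is higher in UXS1 KO does not mean a higher level. The shares of SRSF4, SRSF6 and SRSF10, which fell about as much as the sum, differed by at most 0.18 percentage points.

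Among the hnRNPs the 5 main genes named for A or A/B proteins, HNRNPA0, HNRNPA1, HNRNPA2B1, HNRNPA3 and HNRNPAB, all fell. HNRNPA3 (ENSG00000170144.20, chromosome 2, positions 177212563 to 177223958, plus strand) had 149, 146 and 141 TPM in UXS1 KO and 195, 192 and 182 TPM in CTRL. Its log2 fold change of -0.38 with a standard error of 0.0384 (edgeR adjusted p = 4.95e-09) was the deepest of the hnRNP genes. HNRNPAB had 325, 335 and 330 TPM in UXS1 KO and 412, 415 and 421 TPM in CTRL, a log2 fold change of -0.33 with a standard error of 0.0362. In both genes all UXS1 KO libraries were lower than all CTRL libraries.

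The other A/B genes had smaller changes. HNRNPA2B1, which encodes the proteins A2 and B1, averaged 238 ± 3.59 TPM in UXS1 KO and 285 ± 10.8 TPM in CTRL (SD, n = 3 each), and its log2 fold change was -0.26, while the intronless gene HNRNPA0 averaged 68.3 ± 1.32 and 79.4 ± 2.87 TPM, with a log2 fold change of -0.22. HNRNPA1, a splicing repressor that shuttles between nucleus and cytoplasm, had 391, 397 and 390 TPM in UXS1 KO and 446, 464 and 417 TPM in CTRL, a log2 fold change of -0.17 with a standard error of 0.0401 (edgeR adjusted p = 9.97e-04). The UXS1 KO libraries lay close together, and the CTRL libraries were spread over a wider range above them. With 1 library left out its log2 fold change ran from -0.21 to -0.12, and it stayed called in each of these 6 settings.

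HNRNPA1 has many retrocopies, and 22.8% of the 50-base words in its annotated transcripts also occur in transcripts of other genes. Its 17 processed pseudogenes in the table summed to 75, 85 and 76 counts in UXS1 KO libraries and 79, 102 and 84 counts in CTRL libraries, at most 0.680% of the counts of HNRNPA1. The retrogene HNRNPA1L2, at 4.69 ± 1.04 TPM in UXS1 KO and 4.89 ± 1.02 TPM in CTRL, and HNRNPA1P48, named as a pseudogene but typed protein-coding, at 7.98 ± 0.953 and 8.12 ± 0.364 TPM (SD, n = 3 each), were not called. They share 58.5% and 51.6% of their words with other genes, so both values are uncertain.

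HNRNPD, also known as AUF1, binds AU-rich elements and promotes mRNA decay, and it lies beside its relative HNRNPDL on chromosome 4. HNRNPD (positions 82352498 to 82374503, minus strand) had 73.7, 72.2 and 74.3 TPM in UXS1 KO and 98.7, 97.2 and 90.4 TPM in CTRL, a log2 fold change of -0.38 with a standard error of 0.0386 (edgeR adjusted p = 6.76e-09). HNRNPDL (positions 82422564 to 82430408, minus strand) had 99.4, 98.8 and 97.2 TPM in UXS1 KO and 112, 117 and 116 TPM in CTRL, a log2 fold change of -0.23 with a standard error of 0.0384. Both neighbours fell, with no overlap of groups in either.

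The F/H group, which binds runs of G, split between its closest members. HNRNPH1 (ENSG00000169045.17, chromosome 5, positions 179614178 to 179634784, minus strand) had 78.3, 77.5 and 79.4 TPM in UXS1 KO and 106, 97.0 and 98.9 TPM in CTRL, a log2 fold change of -0.36 with a standard error of 0.0354 (edgeR adjusted p = 3.79e-09). HNRNPH2 (ENSG00000126945.9, chromosome X, positions 101408295 to 101414133, plus strand) had 132, 128 and 120 TPM in UXS1 KO and 124, 128 and 119 TPM in CTRL. Its groups overlapped, and its log2 fold change was 0.04 with a 95% interval from -0.06 to 0.13. A readthrough gene, RPL36A-HNRNPH2, covers 16.3% of its exonic length on the same strand. HNRNPF averaged 329 ± 4.30 TPM in UXS1 KO and 376 ± 6.27 TPM in CTRL, and HNRNPH3 62.1 ± 1.08 and 73.1 ± 3.42 TPM (SD, n = 3 each). Both were lower, with log2 fold changes of -0.19 and -0.23.

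The log2 ratio of HNRNPH1 to HNRNPH2 was -0.75, -0.72 and -0.59 in UXS1 KO libraries and -0.22, -0.40 and -0.27 in CTRL libraries, a difference of -0.39. The ratio of SRSF1 to SRSF9 differed by -0.42 and that of SRSF2 to SRSF8 by -0.58, all on log2(TPM + 1). These 3 ratios did not overlap between groups. That held for 10 of the 16 pairs compared, also for pairs in which both genes fell, such as HNRNPH1 with HNRNPF and HNRNPA1 with HNRNPA3. In an exact two-sided permutation test over 16 pairs of relatives the smallest p was 0.1, the lowest that 3 against 3 libraries allow, or 0.16 adjusted over the pairs, so no pair could pass the threshold. Ratios of other gene pairs were not computed, and these values describe the named pairs only. The pairs SRSF3 with SRSF7 and SRSF4 with SRSF6 had differences of 0.02 and -0.01 with overlapping groups.

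Among the remaining hnRNPs the scaffold protein HNRNPU (SAF-A), which ties RNA to chromatin, averaged 73.9 ± 2.03 TPM in UXS1 KO and 91.2 ± 1.95 TPM in CTRL (SD, n = 3 each), and its log2 fold change was -0.30. HNRNPR, at 71.0 ± 1.52 TPM in UXS1 KO and 87.8 ± 0.737 TPM in CTRL, had the same log2 fold change of -0.30, and its relative SYNCRIP, also called hnRNP Q, one of -0.38. The KH-domain protein HNRNPK, which binds C-rich RNA, was among the most abundant members, with 398, 394 and 400 TPM in UXS1 KO and 464, 452 and 451 TPM in CTRL, a log2 fold change of -0.20 with a standard error of 0.0332. HNRNPC, whose tetramers measure the length of nascent RNA, averaged 244 ± 4.51 TPM in UXS1 KO and 270 ± 8.98 TPM in CTRL (SD, n = 3 each), and its log2 fold change was -0.15. In both genes every UXS1 KO library was below every CTRL library. COX20, at a mean of 0.436 TPM, overlaps 15.6% of the exonic length of HNRNPU on the opposite strand.

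HNRNPM averaged 112 ± 2.08 TPM in UXS1 KO and 131 ± 0.994 TPM in CTRL, and HNRNPUL1 312 ± 10.6 and 363 ± 2.08 TPM (SD, n = 3 each), both with a log2 fold change of -0.22. HNRNPL, which binds CA repeats, averaged 112 ± 1.05 TPM in UXS1 KO and 126 ± 3.71 TPM in CTRL (SD, n = 3 each), and its log2 fold change was -0.16. All 3 genes were called lower. Its relative HNRNPLL, known for exon choice in CD45, had 30.2, 30.1 and 31.4 TPM in UXS1 KO and 32.4, 32.9 and 33.6 TPM in CTRL. Every UXS1 KO library was lower, but the log2 fold change of -0.10 missed the threshold (edgeR adjusted p = 0.0559). It passed without CTRL replicate 1 (edgeR adjusted p = 0.0215). HNRNPUL2 averaged 31.6 ± 0.842 TPM in UXS1 KO and 34.9 ± 1.39 TPM in CTRL (SD, n = 3 each). Its log2 fold change of -0.14 (edgeR adjusted p = 0.0127) lost its call without UXS1_KO replicate 2 (edgeR adjusted p = 0.0578) and on log2(TPM + 1) with no filter (limma adjusted p = 0.0527). The readthrough gene HNRNPUL2-BSCL2 covers 44.1% of its exonic length, so its value is uncertain.

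**Figure D4:**
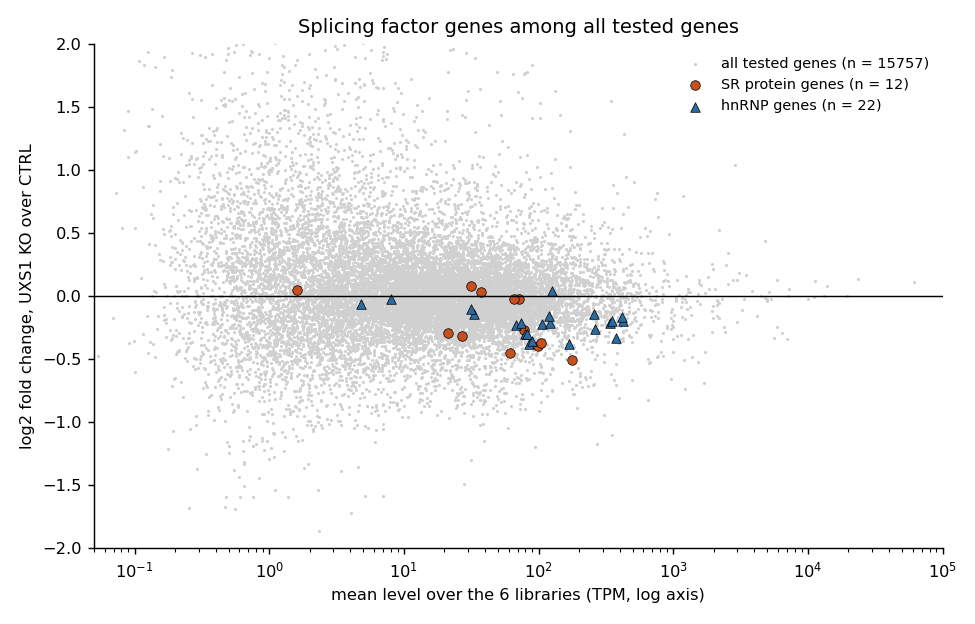
Log2 fold change, UXS1 KO over CTRL, against the mean level over the 6 libraries in TPM on a log axis, for 15757 tested genes in grey, SR protein genes as orange circles and hnRNP genes as blue triangles. Most members sit to the right, among abundant genes, and under 0, and none lies at a change of 1.5-fold. A further 112 tested genes with an absolute log2 fold change above 2 lie outside the plotted range.

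Of the 35 members, 9 share at least 10% of their 50-base words with transcripts of other genes, among them HNRNPA3 with 16.5% and HNRNPL with 11.2%. Reads of these could be split between genes. The other genes include copies and also genes that overlap the member: HNRNPL shares most words with AC008982.1, which overlaps it on the same strand. The 8 pseudogenes of HNRNPA3 held at most 0.868% of its counts. In GENCODE 29, 25 of the 34 tested members had at least 1 annotated transcript of the nonsense-mediated decay type, against 42.2% of 13262 tested protein-coding genes. All 12 SR protein genes had one, as did 13 of the 22 hnRNP genes. Among the hnRNP genes 12 of the 18 that fell had one, against 1 of the 4 not called, HNRNPLL, and this split was not tested. The median number of annotated transcripts was 11.5 in those 18 and 1.5 in those 4, so the 2 groups had unequal chances to hold one. Transcripts with a retained intron were annotated for 23 of the 34 (67.6%), close to the 57.1% of tested protein-coding genes. The members have more annotated transcripts, with a median of 10.5 against 7 for tested protein-coding genes, and a gene with more transcripts has more chances to hold one of either type.

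The rest of the splicing machinery was lower in most lists, with smaller median changes. The share called lower did not follow that order. It was 58.3% for the SR protein genes and 81.8% for the hnRNP genes, and ran from 27.3% to 72% over these lists. Of 28 SR-related proteins 20 were lower and 0 higher, with a median log2 fold change of -0.16. The enhancer-binding proteins TRA2B and TRA2A had log2 fold changes of -0.32 and -0.35, and U2SURP, which sits on the U2 snRNP, one of -0.28. Of 37 tested other hnRNPs and splicing regulators 23 were lower and 0 higher, with a median of -0.19. QKI, a regulator of exons in differentiation, had a log2 fold change of -0.48 and MBNL1, of the muscleblind family, one of -0.32.

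Enzymes that modify or import these proteins were mixed. Of 18 tested SR protein kinases, importers and arginine methyltransferases 9 were lower and 1 was higher, with a median of -0.12. PRMT1, which methylates the arginines of hnRNPs, had a log2 fold change of -0.32, the hnRNP importer TNPO1 one of -0.31 and the SR protein importer TNPO3 one of -0.24. The kinase DYRK1B rose, with 96.2, 91.4 and 90.7 TPM in UXS1 KO and 68.5, 69.1 and 68.1 TPM in CTRL, a log2 fold change of 0.44 with a standard error of 0.0428 (edgeR adjusted p = 2.94e-09).

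In the core spliceosome, 18 of 25 tested U1, U2 and Sm protein genes were lower and 1 was higher (median -0.16), 15 of 22 tri-snRNP and LSM genes were lower and 0 higher (median -0.17), and 12 of 26 genes of the PRP19 complex and later steps were lower and 0 higher (median -0.14). The U1 protein SNRPA had a log2 fold change of -0.38, the polypyrimidine tract reader U2AF2 one of -0.32 and the U2 protein SF3A2 one of -0.34. SNRPN, a Sm protein gene of the imprinted chromosome 15 region, rose by 0.49 on the log2 scale. In the tri-snRNP the log2 fold changes were -0.27 for PRPF4 and -0.18 each for SNRNP200 and EFTUD2, and among later-step factors -0.28 for DHX15, -0.29 for DHX38 and -0.30 for CTNNBL1.

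Of 15 genes of the exon junction complex and of nonsense-mediated decay 8 were lower and 1 higher, with a median of -0.17. The kinase SMG1 had a log2 fold change of -0.43, its partner SMG9 one of -0.30 and the decay factor UPF2 one of -0.33, while RBM8A, a core subunit of the junction complex, rose by 0.19 on the log2 scale. Minor spliceosome proteins were near the background, with 3 of 11 lower, 0 higher and a median of -0.0023. SNRNP25 at -0.37, ARMC7 at -0.33 and CCDC84 at -0.28 were the 3. As the lists were chosen with earlier results known, these counts stand as descriptions. Beside them stand the 23.7% of all tested genes that were lower and the 37.8% of genes at 50 CPM or more. The lists were not matched to either set by level.

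**Figure D5:**
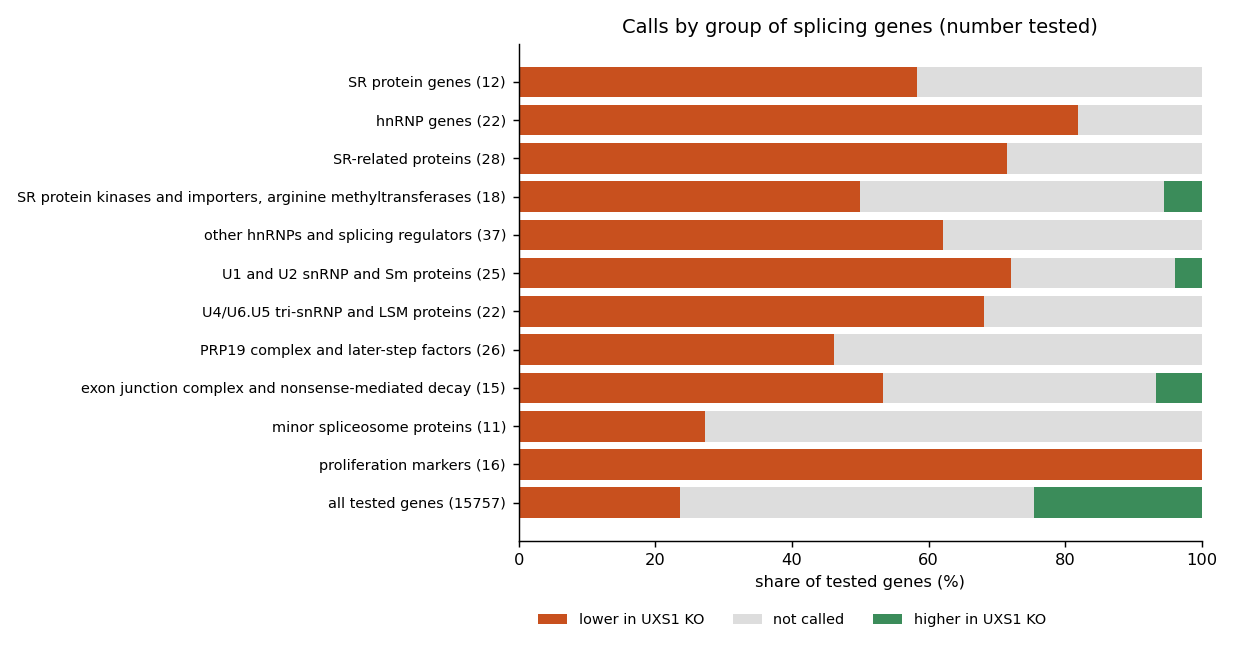
Share of tested genes, in percent, called lower in UXS1 KO (orange), called higher (green) or not called (grey) for each group, with the number tested in parentheses. The hnRNP genes have the largest orange share among the splicing groups, at 81.8%, the minor spliceosome proteins the smallest, at 27.3%, and all tested genes, at 23.7%, are the bottom bar.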

How the data were processed

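RNA from 3 UXS1 KO and 3 CTRL cultures was sequenced, grouped by title. STAR, featureCounts, DESeq2 and hg38 are named in the submitters' processing notes; their versions, the strand setting and the annotation release were not stated there. The deposited counts are whole numbers, 1 row per gene, and the authors' TPM values sum to 1000000 per library. Genes passing filterByExpr (minimum count 10; 15757 of 28317) were tested with edgeR 4.0.16 (R 4.3.3) by the quasi-likelihood F test, two-sided, TMM factors 0.987 to 1.01, group as the only term, Benjamini-Hochberg adjusted p under 0.05 over all tested genes. A log2 fold change is UXS1 KO over CTRL, its SE is its size over the root of F, and intervals use the fit's degrees of freedom. The script was tested on simulated data. Alternatives used DESeq2 1.42.0, limma 3.58.1, other scalings and filters, TPM, the replicate block and each library left out.

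Members and lists were chosen with earlier results of these data known. Every member is accounted for, and of each list up to 3 called genes per direction with the smallest adjusted p are named; SYNCRIP also enters as a paralog. Positions, overlaps and transcript types come from GENCODE 29 on GRCh38. No library was a copy of another: within a group, chi-square over its degrees of freedom was 1.60 to 3.39.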

Additional observations from a re-analysis of the deposited data

How the results depend on the processing

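The 7 SR protein genes called lower stayed called under all 17 alternatives, and the number of SR calls was 7 in each. The number of hnRNP calls ran from 17 to 19, and 17 of the 18 hnRNP genes called lower stayed called in each; HNRNPUL2 and HNRNPLL were the members that crossed the threshold. The median log2 fold change of the SR protein genes ran from -0.301 to -0.265 with 1 library left out, the widest move without CTRL replicate 3, and that of the hnRNP genes from -0.230 to -0.194. Calls over all genes numbered 7590, with 5516 on log2(TPM + 1) without a filter as the lowest. The paralog difference of SRSF3 with SRSF7 changed sign without UXS1 KO replicate 2 or CTRL replicate 1 (leave-one-out range -0.0228 to 0.0586), as did that of SRSF4 with SRSF6 without CTRL replicate 2 (-0.0367 to 0.0203). The replicate numbers gave little sign of pairing (correlations of same-numbered deviations from 0.0055 to 0.0340 over 15757 genes). UXS1 KO replicates 2 and 3 correlated best with their own number, and replicate 1 did not. The replicate block gave 7898 calls over all genes, 7 among SR protein genes and 19 among hnRNP genes, the added one being HNRNPLL (edgeR adjusted p = 0.0443). Read depth limits SRSF12, HNRNPA1L2 and HNRNPA1P48, whose intervals span falls as deep as those called elsewhere.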
